A study of Mus musculus with 12 samples.

Results

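The regions described here are H3K4me3 peaks that C2C12 cells had acquired after 1 day of differentiation and still carried as myotubes, called early gains below. They are the myotube peaks on chromosomes 1 to 19 and X that shared at least 1 bp with a day 1 peak and none with a day 0 peak. They were thus chosen by called presence of H3K4me3 in 3 libraries. The rule gave 562 of the 26024 myotube peaks (2.16%), and presence in those libraries is not a finding. C2C12 is an established line of mouse myoblasts whose cells fuse into myotubes when serum is low, here medium with 2% horse serum. The assay was CUT&RUN, which uses an antibody to tether a nuclease at its target in chromatin and sequences the fragments cut free, with antibodies to H3K4me3, to MBD2 and with a control IgG. The groups were cells of day 0, cells of day 1 and the fractions of day 5, myotubes and reserve cells, the last being cells that stay mononucleated. Mild trypsin parted the fractions of day 5. Each antibody and cell state had 1 library of the same line, so differences are given without p-values and cannot be checked against replicates.

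H3K4me3, the trimethylated form of lysine 4 of histone H3, marks the nucleosomes around active and poised gene starts and spreads into the body of strongly transcribed genes. Myogenic differentiation is driven by the basic helix-loop-helix factors MyoD and myogenin, which bind E-boxes, together with the MEF2 factors, and it ends in the assembly of sarcomeres from actin, myosin, troponin and titin-associated proteins. MBD2 reads methylated CpG and is a subunit of the NuRD chromatin remodelling complex. A myotube peak with no overlap at day 0 or day 1 is called a late gain here (8882 peaks), and a peak with overlaps at both times is called kept since day 0 (15229 peaks). A further 1351 myotube peaks overlapped a day 0 peak but no day 1 peak.

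The deposited H3K4me3 lists counted 19206 peaks for day 0, 17653 for day 1, 26024 for myotubes and 15910 for reserve cells on these chromosomes, and the MBD2 lists held 14941, 452, 287 and 111 in the same order. The sources used here give no read totals. The lowest local background of each list, which depends on depth and fragment length, was 1.47, 1.25, 1.22 and 1.08 fragments per base for H3K4me3 in that order and lay between 0.286 and 0.947 for MBD2. All 8 myotube markers (Myog, Myh3, Ckm, Acta1, Tnnt3, Mymk, Mymx and Atp2a1) had no H3K4me3 peak at their promoters at day 0, while all 8 had one at day 1 and in myotubes and 7 had one among reserve cells, Myh3 being the exception at its promoter. The 5 myoblast markers were marked in every library. In the order day 0, day 1, myotubes and reserve cells, 4, 4, 3 and 4 of 4 reserve cell markers, 3, 3, 2 and 4 of 4 fibroblast markers, 2, 2, 1 and 0 of 3 neuron markers and 0, 0, 1 and 0 of 3 blood markers had a promoter peak. The reserve cell fraction carried peaks at myotube genes, and whether it held myotubes or nuclei committed to differentiation was not tested.

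Because the results turn on muscle gene promoters, the sequences below are the promoters of 6 genes with an early gain, from 250 bases before to 50 after the start, read from RefSeq on GRCm38.p6, a patch release of the mm10 assembly. They were chosen as the strongest early gain by fold (Ip6k3) and as promoters in which a searched motif was found. Capitals mark matches to CAGCTG, an E-box form bound by MyoD and myogenin, to the MEF2 motif or to the CArG box bound by serum response factor. The looser E-box CANNTG, of which CAGCTG is one form, and TATAAA were also counted but are not in capitals, and every motif was searched on both strands.
Ip6k3, chr17:27167715-27168014, minus strand: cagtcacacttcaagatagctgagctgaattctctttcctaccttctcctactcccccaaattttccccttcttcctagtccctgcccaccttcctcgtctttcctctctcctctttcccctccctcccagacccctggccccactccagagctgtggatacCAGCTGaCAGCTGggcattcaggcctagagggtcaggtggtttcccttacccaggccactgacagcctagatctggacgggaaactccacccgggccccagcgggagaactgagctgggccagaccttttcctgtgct
Ckm, chr7:19410844-19411143, plus strand: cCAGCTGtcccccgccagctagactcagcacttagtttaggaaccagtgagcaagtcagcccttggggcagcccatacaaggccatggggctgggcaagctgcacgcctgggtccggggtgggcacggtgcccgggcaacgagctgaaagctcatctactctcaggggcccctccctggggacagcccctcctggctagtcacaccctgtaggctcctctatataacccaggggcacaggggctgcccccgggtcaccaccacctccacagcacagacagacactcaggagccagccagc
Trim63, chr4:134314870-134315169, plus strand: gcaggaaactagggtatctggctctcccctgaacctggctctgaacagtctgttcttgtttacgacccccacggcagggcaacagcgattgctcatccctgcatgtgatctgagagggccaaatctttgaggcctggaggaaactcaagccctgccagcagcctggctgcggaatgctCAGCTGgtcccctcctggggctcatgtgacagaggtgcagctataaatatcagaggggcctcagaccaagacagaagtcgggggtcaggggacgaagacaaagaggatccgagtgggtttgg
Tnnt2, chr1:135836084-135836383, plus strand: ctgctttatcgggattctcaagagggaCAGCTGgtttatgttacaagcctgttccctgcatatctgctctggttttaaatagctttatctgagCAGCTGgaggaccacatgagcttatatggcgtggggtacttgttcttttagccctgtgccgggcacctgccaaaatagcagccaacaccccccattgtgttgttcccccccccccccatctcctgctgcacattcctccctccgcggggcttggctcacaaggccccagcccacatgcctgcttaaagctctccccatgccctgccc
Acta1, chr8:123894726-123895025, minus strand: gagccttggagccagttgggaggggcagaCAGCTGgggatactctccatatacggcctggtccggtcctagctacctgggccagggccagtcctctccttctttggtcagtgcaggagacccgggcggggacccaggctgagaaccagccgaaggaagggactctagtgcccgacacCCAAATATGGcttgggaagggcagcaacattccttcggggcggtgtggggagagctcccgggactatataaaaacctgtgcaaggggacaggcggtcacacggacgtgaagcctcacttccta
Myom3, chr4:135759465-135759764, plus strand: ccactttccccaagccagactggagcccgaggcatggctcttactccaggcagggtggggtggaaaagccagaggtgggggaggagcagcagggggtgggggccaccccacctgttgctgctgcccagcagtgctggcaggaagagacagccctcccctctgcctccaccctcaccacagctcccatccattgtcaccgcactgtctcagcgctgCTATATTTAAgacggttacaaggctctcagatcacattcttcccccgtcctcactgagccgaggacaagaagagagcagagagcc
The promoters shown for Ip6k3 and Tnnt2 held 2 CAGCTG each, and those of Ckm, Trim63 and Acta1 held 1 each. Acta1 also held 1 CArG box, and Myom3 held 1 MEF2 motif and no CAGCTG. Another RefSeq promoter of Tnnt2, at chr1:135836739-135837038, held no CAGCTG, MEF2 motif or CArG box.

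Of the 562 early gains, 167 lay at a promoter, defined as within 1 kb of a transcript start of the GENCODE M21 basic annotation of mm10, and 395 lay elsewhere and are called distal. The promoter share was 29.7% (exact Clopper-Pearson 95% interval 26.0 to 33.7%), against 11.1% of late gains (10.5 to 11.8%), 77.2% of peaks kept since day 0 (76.5 to 77.9%) and 50.4% of all myotube peaks. These intervals cover counting error only. The early gains thus stood between late gains and kept peaks in their place on the genome. Their promoter share differed with the deposited myotube fold enrichment, the authors' ratio of a peak's pileup to its local background, which is used here only within a list. Among early gains of fold 20 or more, 80 of 104 (76.9%) lay at a promoter, against 26 of 169 (15.4%) of those of fold 2 to 5. At fold 20 or more the same share was 46.9% of late gains and 94.5% of kept peaks. With a −log10 q of at least 10 asked of all 3 lists, the promoter share was 55.2% of 183 early gains. In bulk libraries such as these, a mark in fewer cells and a weaker mark in each cell cannot be told apart.

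**Figure D1:**
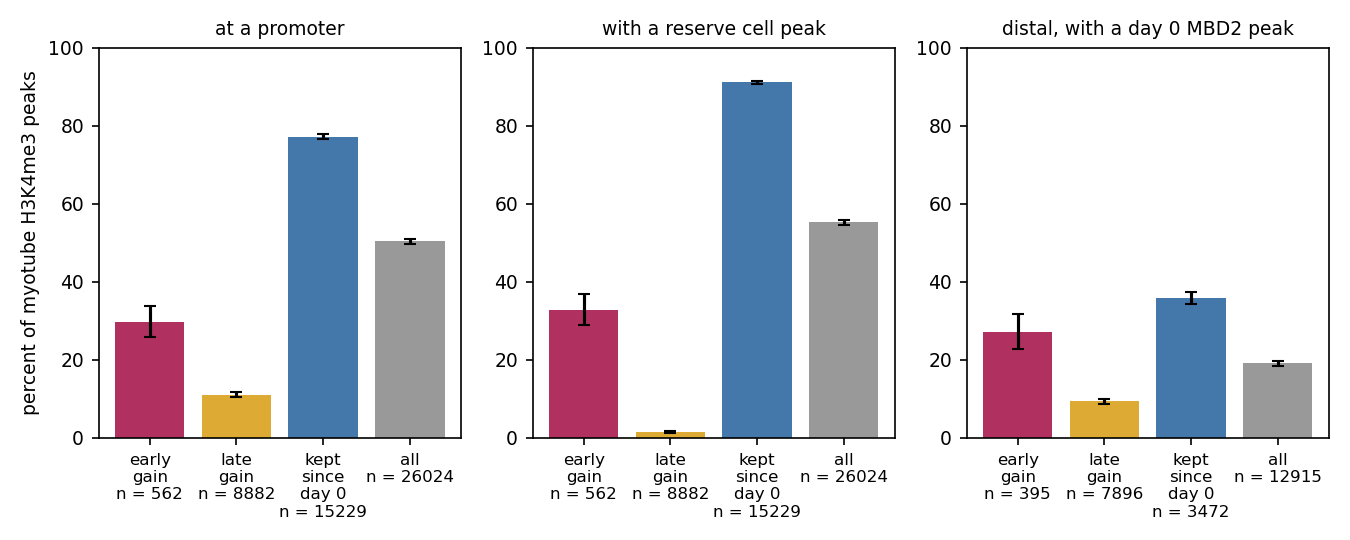
Percent of myotube H3K4me3 peaks lying at a promoter (left), overlapping a reserve cell H3K4me3 peak (middle) and, for distal peaks, overlapping a day 0 MBD2 peak (right), for early gains, late gains, peaks kept since day 0 and all myotube peaks. Bars are shares and error bars exact 95% intervals, and the early gains lie between late gains and kept peaks in each panel, at 29.7%, 32.9% and 27.1%.

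Over all peaks, early gains lay in exons more often than late gains and between genes less often, by exact intervals that do not overlap. Most of either class lay in introns. The summit fell in an exon for 61 early gains (10.9%, 8.4 to 13.7%), against 7.42% of late gains (6.88 to 7.98%). It fell between genes for 128 early gains (22.8%, 19.4 to 26.5%), against 30.1% of late gains (29.2 to 31.1%). An intron held it for 373 early gains (66.4%) and 62.4% of late gains. The shares of kept peaks were 26.3% for exons, 17.7% between genes and 56.0% for introns. Early gains lay more often at promoters, however, and the picture differed by place. Among distal peaks the intervals overlapped, with 6.84% (4.55 to 9.79%) of early and 4.94% (4.47 to 5.44%) of late gains in exons. Between genes the distal shares were 28.1% (23.7 to 32.8%) and 31.5% (30.5 to 32.5%). At promoters, exons held 20.4% of early and 27.3% of late gains, and 10.2% and 19.4% lay between genes. Among the 395 distal early gains, 284 had their summit inside a gene, and in 250 of those cases the host gene already had H3K4me3 at its own promoter at day 0 (88.0%). That share was close to the 84.1% of late gains, 84.4% of kept peaks and 84.4% of all distal myotube peaks inside genes. Only 6 of the 284 lay in a gene that had an early gain at its promoter as well. The distance to the nearest day 0 peak ran from 12 bp to 877957 bp with a median of 9238 bp, and 79 early gains lay within 1 kb of one. Members closest to the limit of the rule were peaks near Ldb1, Pitpnb and Cnnm4, which stopped 12, 18 and 26 bp short of a day 0 peak. The nearest myotube peaks outside the rule shared 5, 13 and 16 bp with a day 0 peak. On the day 1 side, the members of least overlap shared 16, 21 and 27 bp with a day 1 peak, and the nearest peaks outside lay 2, 2 and 6 bp from one. The early gains formed 523 loci when those within 20 kb were joined, and 34 loci held 2 or more. Plekhg5, Lama5 and Hspb1 had 3 early gains each near them. A further locus of 3 and another of 2 lay in the 5S ribosomal RNA repeats. Reads there can be placed on any of many near-identical copies, so the positions are uncertain. Their members stayed in all counts, also in the reach around gene starts below.

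Early gains at promoters included many genes of the contractile apparatus. Of all genes, 128 of 21755 protein-coding genes had an early gain (0.588%), as had 61 genes of other types, among them 17 long intergenic non-coding RNAs, 11 antisense RNAs and 7 microRNAs. Of the 9353 protein-coding genes without a day 0 peak at any of their promoters, 100 had one (1.07%). The gene lists were chosen with earlier results of these data known, so their counts are a description only. Several muscle lists were far above these shares, of which 0.588% is the one over all genes, marked at day 0 or not. In the thin filament and troponin list, 12 of 23 genes (52.2%) had an early gain at a promoter, and all 12 were among the 15 without day 0 H3K4me3. In the thick filament and M band list the count was 10 of 30, with 21 unmarked at day 0, and in the muscle energy list 7 of 33, with 14 unmarked. Those 7 included Smpx and Asb2, which are not genes of energy metabolism. In the Z disc list the count was 4 of 27, with 14 unmarked, and in the calcium handling and excitation list 4 of 28, with 13 unmarked. The count was 3 of 25 for myogenic regulators, of which 21 were already marked at day 0, and 2 of 23 for fusion and membrane repair. The 3 were Myog, Smyd1 and Lmod3, and the last 2 were also counted in a filament list. The dystrophin complex, neuromuscular junction, cell cycle exit and blood lists had 1 gene each, of 20, 15, 13 and 16 genes. No early gain lay at a promoter of the 30 cell cycle, 23 fibroblast and matrix, 22 satellite and reserve cell, 20 neuronal, 14 liver or 20 housekeeping genes. The rule asks for no day 0 overlap, and all cell cycle and housekeeping genes, 19 of the satellite and reserve cell genes and 18 of the fibroblast and matrix genes had a day 0 peak, so these counts were nearly fixed by it. Of the neuronal and liver genes, 11 and 13 were unmarked at day 0. Lists that short cannot tell an absence of early gains from the share of 1.07% over all such genes. Of 11 muscle microRNAs found in the annotation, 4 had one, namely Mir1a-1, Mir1a-2, Mir133a-1 and Mir1b, and a single peak covers the last 3. In all, 48 of the 387 listed genes found had an early gain. With a −log10 q of at least 10 in day 1 and myotubes and all day 0 peaks kept, chosen after seeing the data, 52 protein-coding and 29 listed genes had one.

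**Figure D2:**
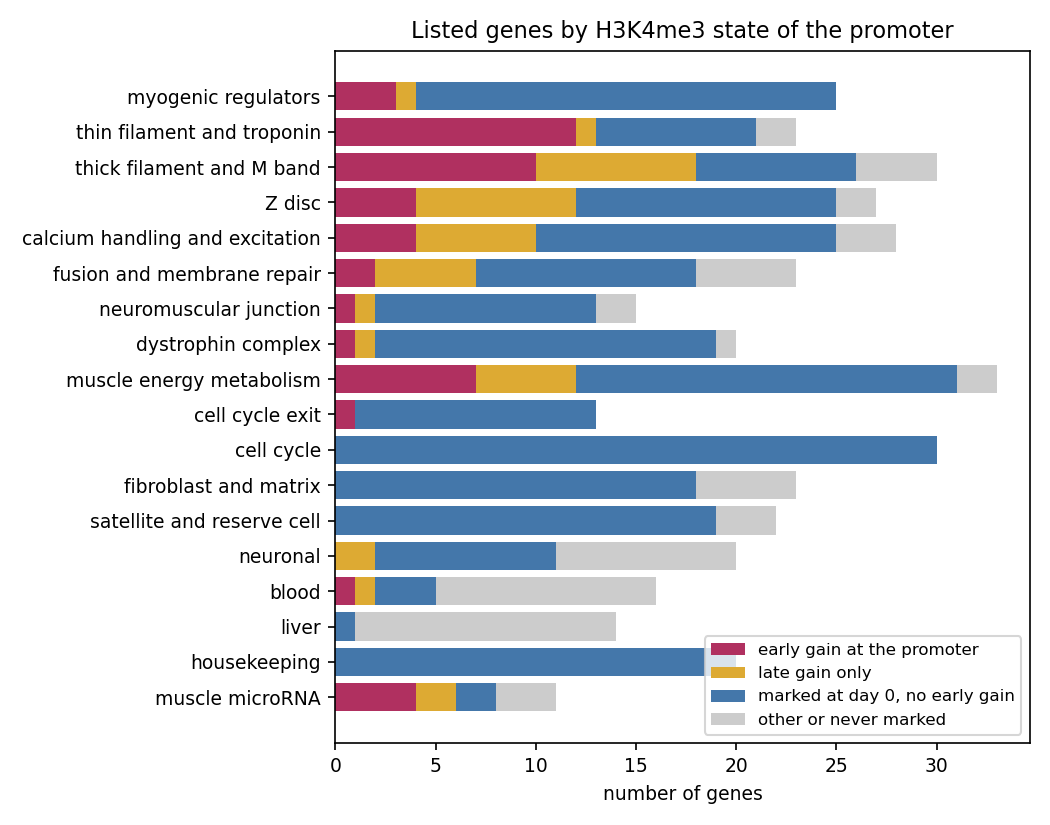
Number of genes per list whose promoter had an early gain, only a late gain, day 0 H3K4me3 without an early gain, or none of these. Early gains were found at 12 of 23 thin filament and troponin genes and 10 of 30 thick filament and M band genes, and the 30 cell cycle and 20 housekeeping genes, at which there were none, all had day 0 H3K4me3.

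Of the 12 early gains of highest myotube fold, 11 lay at promoters, most of them of genes known from muscle. Ip6k3, an inositol hexakisphosphate kinase, had the highest fold, 75.6, with a peak at chr17:27162746-27168174 of 840 bp on day 1, 5429 bp in myotubes and 2165 bp among reserve cells. Myom3, which encodes an M band protein, had 2400, 4816 and 1719 bp at the same stages at chr4:135758597-135763412. Hfe2, the iron regulator hemojuvelin, had 2189, 5487 and 1076 bp. Each was longest in myotubes. Tnnt1, slow skeletal troponin T, had 3596 bp on day 1, 9191 bp in myotubes and 4367 bp among reserve cells at chr7:4508308-4517498. The microRNA gene Mir1a-1 had 4095, 10051 and 2925 bp at chr2:180384595-180394645. For Trim63, a ubiquitin ligase of the sarcomere, the lengths were 1302, 6868 and 1729 bp. In these genes too the myotube peak was the longest, while the reserve cell peak was longer than the day 1 peak for Tnnt1 and Trim63 and shorter for Mir1a-1. Ckm, muscle creatine kinase, had 1282, 5001 and 529 bp at chr7:19409252-19414252. Stac3, an adaptor of excitation-contraction coupling, had 838, 2479 and 617 bp. Pgm5, a phosphoglucomutase relative found at cell junctions, had 326, 5868 and 1632 bp. Neurl1a and Myom2 complete the promoters among the 12 of highest fold, and the only distal one was the Nrg1 intron. Among the 50 early gains of highest fold, 45 were at promoters and 48 overlapped a reserve cell peak. All were chosen by their myotube signal, so a longer peak in myotubes at these genes is a description only.

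Of the 6 longest early gains, 5 lay at the muscle genes Myl1, Atp2a1, Mybph, Actc1 and Myom2. Myl1, an essential light chain of myosin, had the longest at 16392 bp in myotubes at chr1:66929492-66945883, against 6105 bp at day 1, and its reserve cell peaks came to 1539 bp. The second longest, of 13571 bp in myotubes against 3957 bp on day 1 and with 1509 bp among reserve cells, lay inside 5430431A17Rik. With predicted genes left out, the nearest start was that of the microRNA gene Mir7052. Atp2a1, which encodes the calcium pump SERCA1 of fast fibres, reached 11704 bp in myotubes, against 4115 bp on day 1, and 2439 bp among reserve cells. Mybph, a myosin binding protein, reached 11625 bp in myotubes, against 2714 bp on day 1, and 3789 bp among reserve cells. The summed day 1 lengths of these 4 ran from 2714 to 6105 bp. At Myl1 the outermost day 1 ends already lay 257 bp upstream and 13107 bp downstream of the start, gaps included. Those of the myotube peak lay at 740 and 15651 bp. Actc1, cardiac alpha-actin, had 3179 bp on day 1, 10304 bp in myotubes and 597 bp among reserve cells. Myh3, embryonic myosin heavy chain, had 2868, 10192 and 359 bp at chr11:67075791-67085982. Both had reserve cell peaks far shorter than at day 1. Smpx, a small X-linked muscle protein, had 327 bp on day 1, 9223 bp in myotubes and no peak in reserve cells. Lmod2, which lengthens thin filaments, had 1615, 9446 and 2600 bp. The reserve cell peaks of Myh3 and Lmod2 began 1881 and 1119 bp downstream of their starts, outside the promoter window. Myotube peaks of 4 kb or more numbered 82 among the early gains, against 13 whose day 1 peaks summed to that length, and 5 of their reserve cell peaks did so.

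Regulators and fusion genes also had longer peaks in myotubes than at day 1. Myog, the myogenin gene, had 2673 bp on day 1, 4706 bp in myotubes and 2364 bp among reserve cells at chr1:134289203-134293908. Smyd1, a muscle methyltransferase, had 2234, 4469 and 876 bp. Lmod3, a thin filament nucleator, had 2273, 5166 and 1926 bp. Mymk, the fusion protein myomaker, had 3574, 8769 and 2579 bp at chr2:27064345-27073113. Trim72, a membrane repair protein, had 2120, 5668 and 1952 bp. All 5 were longest in myotubes and shortest in reserve cells. The gene of the other fusion protein, Mymx, had no day 0 peak at its promoter and 4111 bp of day 1 peak, but the myotube peak there reached a day 0 peak further away and so was not an early gain. Klhl41 was likewise not an early gain, and Mef2c was marked at day 0 already.

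Among troponins and actin regulators, Tnnt2, cardiac troponin T, had 2839 bp on day 1, 4676 bp in myotubes and 2108 bp among reserve cells. Tnni1, slow troponin I, had 2693, 9374 and 2206 bp. Neb, the thin filament ruler nebulin, had 968, 4589 and 584 bp, and Acta1, skeletal alpha-actin, had 3967, 9377 and 2007 bp. Klhl40, which stabilises nebulin and Lmod3, was the exception here, since its reserve cell peaks came to 3520 bp, against 2911 bp at day 1, and its myotube peak to 7107 bp. At the Z disc, Xirp1, an actin-binding repeat protein, had 2865 bp on day 1, 4570 bp in myotubes and 2752 bp among reserve cells. Ankrd23 had 479, 4972 and 1157 bp, and the small heat shock protein gene Hspb3 had 270, 4651 and 557 bp. Thus the Z disc genes Ankrd23 and Hspb3 had reserve cell peaks longer than at day 1, and Xirp1 did not. Of the calcium genes, Srl, sarcalumenin, had 3519 bp on day 1, 7552 bp in myotubes and 3306 bp among reserve cells. Casq2, a calsequestrin, had 2560, 6176 and 1679 bp. Of the energy genes, the muscle glycogen phosphorylase gene Pygm had 906, 4453 and 685 bp. Pgam2, a glycolytic mutase, had 666, 3295 and 882 bp, and Cox8b, a muscle subunit of cytochrome oxidase, had 735, 2667 and 1078 bp. Myotube peaks were the longest at every gene of this paragraph.

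**Figure D3:**
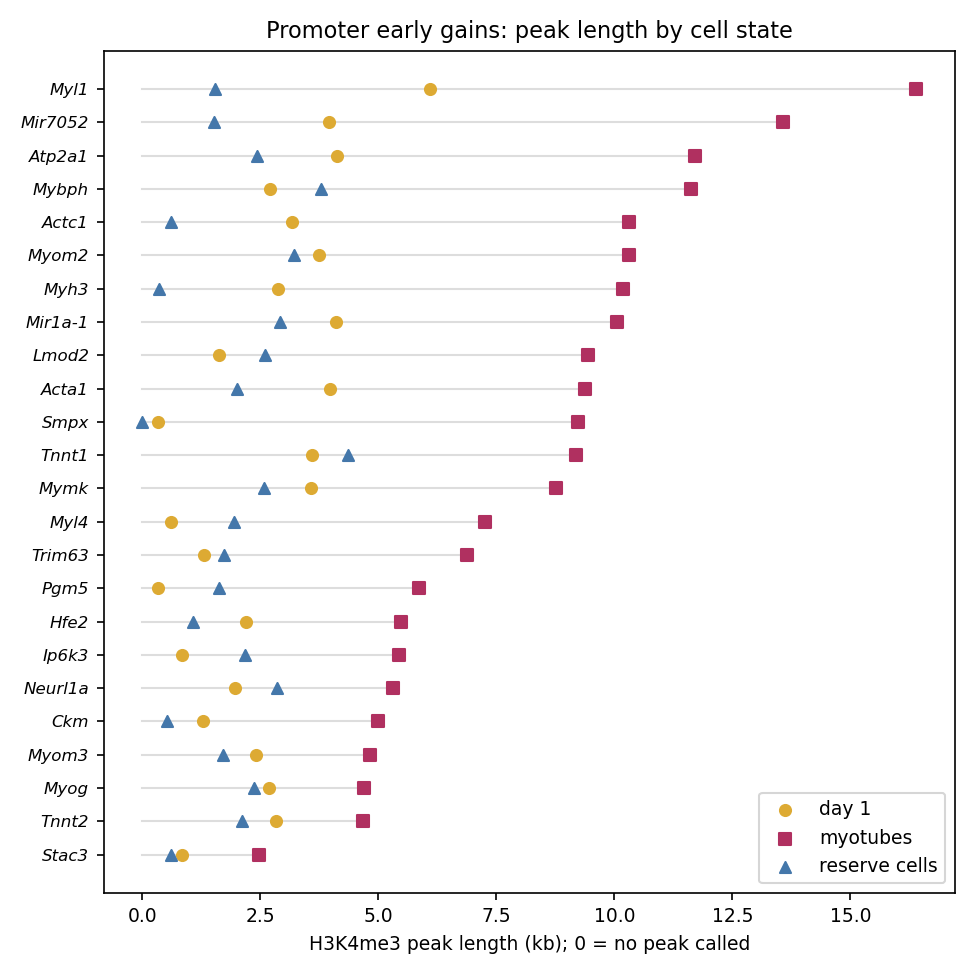
Length in kb of the H3K4me3 peaks at 24 promoter early gains, at day 1 (circles), for myotubes (squares) and for reserve cells (triangles), with 0 for no peak. Lengths are summed where several peaks of a library lay under the myotube peak, which is the longest of the 3 at every gene shown, and Smpx alone had no reserve cell peak.

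Most early gains were longer in myotubes than at day 1, and kept peaks were not. The median length was 892 bp in myotubes, against 444 bp for the summed day 1 peaks beneath. The median ratio of myotube to day 1 length was 2.00 (quartiles 1.14 and 3.49), and 447 of 562 early gains were longer in myotubes, 113 shorter and 2 equal. Of all myotube peaks with a day 1 peak, 48.8% were longer, and the median ratio of kept peaks was 0.988 (quartiles 0.837 and 1.18). At least 2 times the day 1 length was reached by 282 early gains, at least 5 times by 86 and at least 10 times by 24. Promoter early gains had a median of 2610 bp in myotubes, against 711 bp at day 1, with a median ratio of 2.45. Distal ones had 751 bp, against 391 bp, with a median ratio of 1.88. The day 1 peaks of early gains were mostly weak, and weak kept peaks were also longer in myotubes. Within bands of day 1 fold, the median ratio was 2.14 for early gains and 1.65 for kept peaks at fold 2 to 5. It was 1.98 and 1.20 at fold 5 to 10, and 2.26 and 0.977 at fold 10 to 20, with 35 early gains in the last band. Early gains therefore had the higher median in each of these 3 bands.

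At fold 20 or more at day 1 the median ratio was far lower, at 0.104 over 23 early gains. Of these, 3 were longer in myotubes than at day 1. For 38 of the 562 early gains, the day 1 peak also overlapped a day 0 peak elsewhere along its length, so the day 1 mark joined a region already marked at day 0. Their myotube peaks had a median of 343 bp, a median ratio to the day 1 length of 0.173 and a fold of at most 7.01. That ratio sets 1 early gain against the whole day 1 peak. Other myotube peaks over the same day 1 peak were left out if they met day 0, so the ratio does not measure shortening. At Pmepa1os, a non-coding RNA gene, a myotube peak of 300 bp lay under a day 1 peak of 8313 bp, with a reserve cell peak of 8108 bp. Fam20a, a secretory pathway pseudokinase, had 5706 bp on day 1, 380 bp in myotubes and 5928 bp among reserve cells for one of its pieces. Acta2, smooth muscle actin, had 5560, 525 and 6252 bp. In these 3 cases the reserve cell peak was close to the day 1 peak in length, and the early gain was short beside the day 1 peak. The Acta2 promoter still had 4959 bp of peak in myotubes, outside the early gains, against 5031 bp at day 0. Without the 38, the median ratio was 2.16 over 524 early gains.

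**Figure D4:**
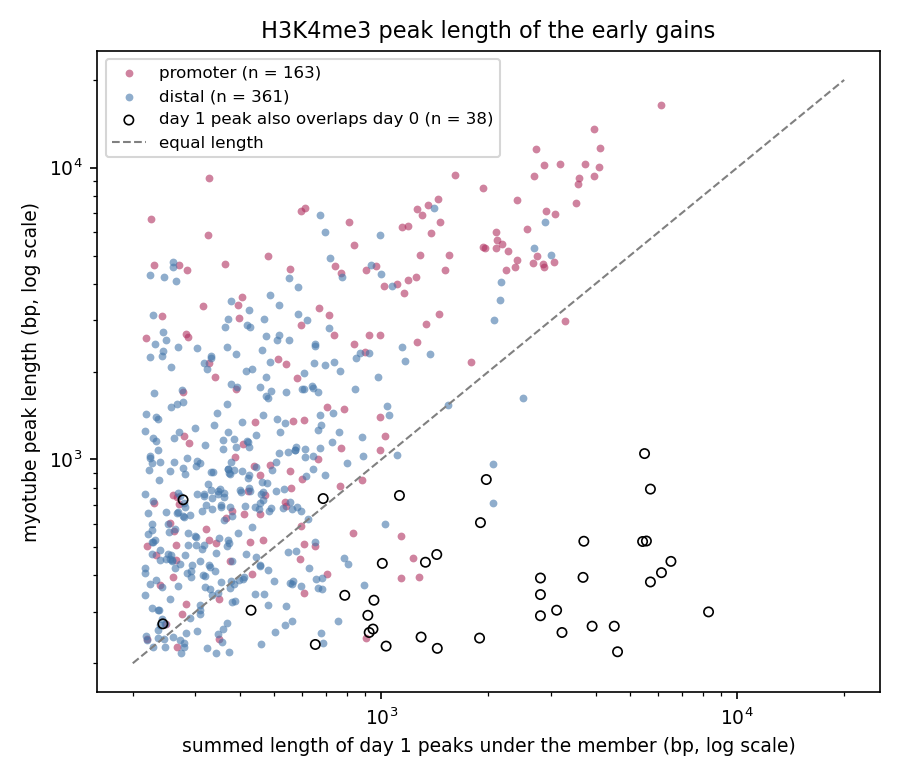
Length of each early gain in myotubes against the summed length of the day 1 peaks beneath it, both in bp on log scales, for 163 promoter and 361 distal peaks and for the 38 whose day 1 peak also overlapped day 0 (open circles). Most points lie above the dashed line of equal length, and 35 of the 38 open circles do not.

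Around gene starts the growth was mainly into the gene. For 116 early gains that contained an annotated start of a named gene, the reach of the mark was measured from the most upstream start inside the peak. Its median was 568 bp upstream and 2942 bp downstream in myotubes, against 67 bp upstream and 949 bp downstream at day 1. The median gain was 542 bp upstream and 1890 bp downstream, and 96 of 116 gained more downstream than upstream. The myotube mark reached further downstream than at day 1 in 109 of the 116 and further upstream in 104. In the 81 that also had a reserve cell peak, the median downstream reach was 1327 bp on day 1, 3649 bp in myotubes and 1309 bp among reserve cells. The median upstream reach was 110 bp on day 1, 788 bp in myotubes and -6 bp among reserve cells, where a negative value means that the mark began downstream of the start. In both directions the reserve cell median was nearer to that of day 1 than to that of myotubes.

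**Figure D5:**
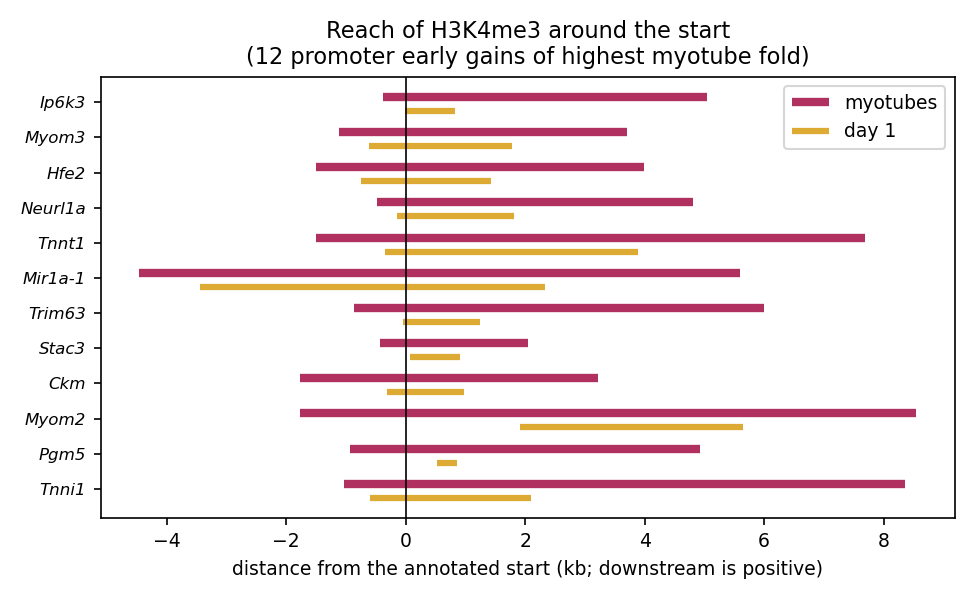
Reach of H3K4me3 around the annotated start (0, in kb, downstream positive) at the 12 promoter early gains of highest myotube fold, from the outermost ends of the peaks in myotubes (thick bars) and at day 1 (thin bars), gaps between day 1 peaks included. The genes were chosen by their myotube signal, and the myotube mark reached up to 8540 bp downstream, at Myom2.

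Reserve cells, whose library played no part in the rule, had H3K4me3 at 185 of the 562 early gains (32.9%, exact 95% interval 29.0 to 37.0%), against 136 of 8882 late gains (1.53%, 1.29 to 1.81%) and 91.1% of kept peaks. Over all myotube peaks the share was 55.3%. The early gains were thus found in reserve cells more often than late gains and less often than kept peaks, by intervals that do not overlap. The share was 55.1% (47.2 to 62.8%) at promoters and 23.5% (19.4 to 28%) at distal early gains. Among early gains of fold 20 or more, 86 of 104 had a reserve cell peak (82.7%), against 22 of 98 late gains of that fold (22.4%). For fold 2 to 5 the shares were 19.5% and 0.773%. The difference from late gains therefore held in weak and strong peaks alike. The level itself depended on the lists. With the 15910 strongest peaks of each list, 395 peaks met the same rule and 56.7% of them had a reserve cell peak, against 7.97% of 1996 late gains and 97.4% of kept peaks. At a −log10 q of at least 10, 82.0% of 183 early gains had one. Only 179 of those 395 and 81 of those 183 belonged to the 562, since weak day 0 peaks no longer counted.

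The early gains that reserve cells shared were shorter there than in myotubes. Of the 185, 166 were longer in myotubes and 19 in reserve cells, with a median ratio of myotube to reserve cell length of 2.84, against 1.13 for kept peaks. Relative to day 1, the median ratio of the reserve cell length was 0.914 for early gains and 0.868 for kept peaks. For the 92 at promoters the median length was 1292 bp on day 1, 4668 bp in myotubes and 1077 bp among reserve cells. Of the 173 shared early gains whose day 1 peak was clear of day 0, 163 were longer in myotubes than at day 1 and 69 were longer in reserve cells than at day 1. In 94 of them the myotube peak was longer and the reserve cell peak shorter than at day 1. At Cdkn1c, the gene of the cyclin-dependent kinase inhibitor p57, the early gain had 350 bp on day 1, 333 bp in myotubes and 1824 bp among reserve cells. Its promoters were not newly marked, however, with peaks of 611 bp at day 0, 1289 bp on day 1, 943 bp in myotubes and 1824 bp among reserve cells in all. Tgm2, transglutaminase 2, chosen after the values were seen, had 1786 bp on day 1, 2156 bp in myotubes and 1598 bp among reserve cells. It too was longer in myotubes and shorter in reserve cells than at day 1.

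The strongest early gains without a reserve cell peak included several muscle genes. Usp20, a deubiquitinase, had 768 bp on day 1 and 4339 bp in myotubes. Lrrc39, an M band protein gene, had 705 and 1510 bp at these stages, and Smtn, the actin-binding smoothelin, had 316 and 3365 bp. Filip1, a filamin-interacting protein gene, had 1260 and 7236 bp, and Myoz2, a calcineurin-binding Z disc protein gene, had 285 and 4448 bp. Each had a myotube peak more than 2 times as long as its day 1 peak. The 75 promoter early gains without a reserve cell peak had a median myotube length of 753 bp, against 456 bp at day 1. The 92 with one had 4668 bp, against 1292 bp.

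The distal early gains were mostly short and weak, with a few strong exceptions inside genes. The strongest lay in an intron of Nrg1, the growth factor neuregulin 1, with 549 bp on day 1, 2567 bp in myotubes and no reserve cell peak. It was 141705 bp from the nearest start of a named gene, predicted genes left out. An intronic peak of Nav2, a neuron navigator gene, had 2875 bp on day 1, 6492 bp in myotubes and 2601 bp among reserve cells at chr7:49370136-49376627. In Mast2, a microtubule-associated kinase gene, the lengths were 515, 3371 and 523 bp. Both Nav2 and Mast2 peaks were close to their day 1 lengths in reserve cells. In Acsl6, a long-chain acyl-CoA synthetase gene, they were 1410 bp on day 1 and 7292 bp in myotubes with no reserve cell peak. In Macf1, a crosslinker of actin and microtubules, they were 2989, 5027 and 3196 bp. A peak between genes, 53734 bp from the start of Rhob, had 995, 4316 and 1522 bp. Of the 8 strongest distal early gains, those in Nrg1 and Acsl6 were the ones without a reserve cell peak. The median distance of a distal early gain to the nearest named start was 13697 bp.

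Of 1186 day 1 peaks without a day 0 overlap, 691 (58.3%) had a myotube peak and 305 (25.7%) a reserve cell peak. Over all 17653 day 1 peaks, the shares were 89.8% and 82.6%, and over those with a day 0 overlap 92.1% and 86.7%. The difference was smaller within bands of day 1 fold. At a fold of 2 to 5 the myotube share was 55.6% of 768 peaks without a day 0 overlap, against 62.9% of 1557 with one, and the reserve cell share was 15.2%, against 29.7%. At fold 5 to 10 the myotube share was 62.6%, against 76.9%, and the reserve cell share 38.8%, against 59.1%. Of the 1186, 221 had both, 84 a reserve cell peak only and 411 neither. At promoters, 191 of 297 were kept in myotubes. The median day 1 fold was 4.43 for those kept and 4.43 for those not kept, and the median day 1 length was 400 bp for those kept, against 339 bp for those not kept.

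MBD2 had lain on some of these regions at day 0. A day 0 MBD2 peak overlapped 115 of the 562 early gains (20.5%, exact 95% interval 17.2 to 24.0%), against 19.2% of all myotube peaks. Of the 115, 107 were distal. They made up 27.1% of the 395 distal early gains (22.8 to 31.8%), against 9.42% of distal late gains (8.79 to 10.1%), 35.9% of distal kept peaks (34.3 to 37.5%) and 19.1% of all distal myotube peaks. At promoters it was 8 of 167 (4.79%, 2.09 to 9.22%), against 4.97% of promoter late gains and 20.8% of promoter kept peaks. Promoter early gains with one included Syne1, a nuclear envelope protein gene, and Dusp13, a phosphatase gene, chosen after the values were seen. In early gains of fold 20 or more, 3 of 104 had a day 0 MBD2 peak (2.88%), against 7.14% of late gains, 22.7% of kept peaks and 22.4% of all myotube peaks of that fold. A longer peak can meet more peaks, so the same share was also taken within 500 bp of the summit, where it was 26.6% of distal early gains, 11.6% of distal late gains and 34.0% of distal kept peaks. With a −log10 q of at least 10 in day 1 and myotubes and all day 0 peaks kept, an alternative chosen after seeing the data, it was 15.4% of 26 distal early gains.

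Few early gains overlapped an MBD2 peak of a later stage, and those lists were much shorter. Day 1 MBD2 peaks overlapped 8 early gains (1.42%, against 1.06% of all myotube peaks), and all 8 were distal and had a day 0 MBD2 peak too. Myotube MBD2 peaks overlapped 9 (1.60%, against 0.788% of all). The 8 strongest of these were at the promoters of Usp20, Klhl40 and Acta1, inside St3gal5, Aldh3b1, Itgb5 and Msi2, and between genes 125728 bp from a Runx1 start. Within 500 bp of the summit, a myotube MBD2 peak lay at 5 early gains (0.89%) and at 0 of the 167 at promoters. At Usp20, Klhl40 and Acta1 the overlap was therefore away from the summit of a long peak. Reserve cell MBD2 peaks overlapped none of the 562, which allows a share of up to 0.654% by the exact interval, against 0.2% of all myotube peaks. The MBD2 lists differed in size from 14941 to 111 peaks and in lowest background from 0.286 to 0.947 fragments per base, and the part of this in the smaller overlap was not tested.

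In sequence, promoter early gains were poor in CpG. In the 300 bp around the myotube summit, the median ratio of observed to expected CpG was 0.275 at promoter early gains, 0.259 at promoter late gains and 0.694 at promoter kept peaks, and the median GC content was 53.7%, 52.7% and 61.7%. At distal sites the CpG ratio was 0.218, 0.189 and 0.351 in the same order. The E-box CAGCTG was in 120 of 395 distal early gain windows (30.4%, exact 95% interval 25.9 to 35.2%), against 22.9% of distal late gains, 20.3% of distal kept peaks and 22.3% of all distal myotube peaks. At promoters it was in 22.2% of early gain windows (16.1 to 29.2%), 20.3% of late gains and 15.3% of kept peaks, and the MEF2 motif was in 0.599% of early gain windows, 3.55% of late gains and 0.757% of kept peaks there. The MEF2 motif was less frequent in early than in late gains at distal sites, in 2.03% of early gain windows (0.878 to 3.95%), 5.08% of late gains (4.60 to 5.59%) and 2.28% of kept peaks. The looser CANNTG was in 81.5%, 81.9% and 72.6% of distal windows of these classes. The CArG box was in 2.03%, 1.56% and 1.3%.

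The RefSeq promoter windows gave a further view, since the summit can lie far from the start in a long peak. Of the 128 protein-coding genes with an early gain, 93 had a RefSeq promoter, with 143 starts. CAGCTG was in 47 of the 143 (32.9%), against 15.8% of the 20061 RefSeq starts of all protein-coding genes. The MEF2 motif was in 15 (10.5%, against 2.56%), the CArG box in 6 (4.20%, against 1.52%) and CANNTG in 115 (80.4%, against 68.6%). TATAAA, added after the values of the other motifs were seen, was in 21 (14.7%, against 12.1%). The median ratio of observed to expected CpG was 0.332, against 0.591 for all. In the 88 starts whose early gain had a fold of 20 or more, CAGCTG was in 36.4% and the MEF2 motif in 13.6%. The summit windows of the promoter early gains of that fold were not rich in either. They held CAGCTG in 12 of 80 (15%), against 14.2% of all promoter myotube peaks of that fold, and the MEF2 motif in 0 of 80, which allows up to 4.51% by the exact interval, against 0.684%. Starts of 1 gene can share bases, and a match to these letters does not show binding.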

How the data were processed

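Per the submitters' processing notes and the series' design text, the CUT&RUN read pairs passed through Trim Galore, Bowtie2 (mm10) and SAMtools before MACS2 called peaks. Each deposited list is of 1 library. The sources used here do not give tool versions, MACS2 settings or any use of the IgG libraries as control, nor whether the lists had passed the later filtering that the design text mentions. The deposited pileup is a signal, the fragments at the summit, and the fold enrichment is the ratio of pileup to local background, per the file headers. Significance is deposited as −log10 of a p-value and of a q-value in columns whose names were damaged, and MACS2's column order told them apart. Peak lengths are the deposited end minus start plus 1, in bp. The 4 IgG libraries were not analysed here.

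Peaks on chromosomes 1 to 19 and X of the 8 lists were intersected with Python 3.11.15, pandas 2.3.3 and numpy 2.4.6, with an overlap of at least 1 bp, and scipy 1.17.1 gave the Clopper-Pearson 95% intervals, for counting error alone. Day 1 and reserve cell lengths are summed over all peaks of that library under a member. The intersection was tested on simulated intervals of known class. Starts came from the GENCODE M21 basic annotation, summit windows of 300 bp from the mm10 genome and promoters from RefSeq GRCm38.p6. Depth is unknown because read totals are not given, so precision rests on peak counts.

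The members and the 18 gene lists were chosen with earlier results of these data known. Named members were the 12 of highest myotube fold, the 8 of largest and 5 of smallest growth, the 6 longest, the 8 strongest distal, the 8 strongest without a reserve cell peak, the 6 of highest reserve cell fold, up to 8 with myotube MBD2, up to 5 per list and 12 fixed genes. Alternatives changed the q threshold, list sizes, overlaps, the promoter window and the annotation. A few genes and regions are not reported here by name or sequence.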

Additional observations from a re-analysis of the deposited data

How the results depend on the processing

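With 1 library per group, replicates could not be left out. No paired analysis was possible because each group has 1 library and no result comes from a test. Of the alternatives, requiring 50% overlap with the day 1 peak, no day 0 peak within 1 kb, or a day 1 peak clear of day 0 (the last chosen after seeing the data) kept the results computed under them within 1.5 times a count or the 95% interval of a share or median. These were the number of members, the promoter, reserve cell, MBD2, CAGCTG and downstream growth shares, the length ratio and the gene counts. Running the MBD2, CAGCTG and downstream growth shares was also chosen after seeing the data. The q threshold and the list sizes moved several results, and the CAGCTG and downstream growth shares and the MBD2 shares over all members were not run under the next 2 alternatives. With a −log10 q of at least 10 in all 3 lists there were 183 members, 55.2% at a promoter and 82.0% with a reserve cell peak, and the median length ratio was 1.84. With equal numbers of peaks the shares were 40.8% and 56.7%, the ratio 2.28 and the distal day 0 MBD2 share 32.1%. With that q threshold in day 1 and myotubes and all day 0 peaks kept, chosen after seeing the data, 81 members remained, 67.9% at a promoter and 86.4% with a reserve cell peak, with a ratio of 2.51, 52 protein-coding and 29 listed genes and a day 0 MBD2 share of 7.41%, or 15.4% of 26 distal ones. The promoter share was 34.3% with a 2 kb window, 22.6% with protein-coding starts only and 38.4% with the comprehensive annotation, the last chosen after seeing the data. No alternative gave a median length ratio below 1.84 or a reserve cell share below 31.9%. The cause of these shifts was not tested beyond the alternatives' own construction, which counts weak peaks as absent or adds starts. Peaks near the calling limit decide membership, and depth per library is unknown.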
